A study of Mus musculus with 67 samples.

Results

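The livers of Sestrin double knockout (DKO) mice were compared with those of wild-type (WT) mice on control food at day 1, which the labels give as 24 hours of feeding. All 8 libraries of the DKO group and all 7 of the WT group on control food at day 1 were taken, 15 of the 67 libraries of the series. The remaining libraries come from livers fed leucine-free food or collected after 8 days, and they enter only where the genotype difference is set beside that of another food or day. Each library is RNA from the liver of 1 numbered mouse of either genotype, and both groups ate control food. The labels name the knockout genotype "Sesn2 DKO" and do not spell out the second gene, the alleles, the strain, the age or the sex of the mice, nor whether other tissues lack the genes. What was measured is the number of sequenced fragments per gene (the count), given below as CPM, the count scaled to the library total. In these 15 libraries the total count lay between 28705658 and 45951858, so that 1 CPM stood for 28.7 to 46.0 counts.

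Sestrins are stress-inducible proteins. Sestrin1 and Sestrin2 bind leucine and, when it is scarce, restrain GATOR2, a complex that leads to activation of the growth kinase complex mTORC1. Adult liver cells divide rarely. A cell that divides copies its DNA in S phase under the E2F factors, then builds a spindle and separates its chromosomes in mitosis, with cyclin B1 and its kinase Cdk1 at the entry. Most genes for mitosis are silent in resting cells and are switched on late in the cycle through short promoter elements, among them the CCAAT box and the cell cycle genes homology region.

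After 1 day on control food, genes of mitosis stood higher in the DKO group. In a test over all 16908 genes with enough counts (edgeR's quasi-likelihood test, Benjamini-Hochberg adjusted p under 0.05), 142 genes, 0.84% of those tested, were higher and 7, 0.0414%, were lower in DKO livers. These 149 are 0.881% of the genes tested, and 5.27% had an unadjusted p under 0.05. Of the 142, 81 belong to a list of 102 mitosis genes, and 10 to a list of 75 S phase genes. The median of the log2 differences was 2.10 over the mitosis list and 0 over all genes tested. Most of these genes were scarce: 90 of the 142 had a WT mean under 1 CPM, and 18 had a DKO mean of at least 10 CPM. In 24 of the 142 genes the lowest DKO library exceeded the highest WT library, while over all genes tested this held for 27, or 0.16%. In 62 of the 102 mitosis genes 7 or more DKO libraries exceeded the whole WT group, against 0.68% of all genes tested. When only genes with a mean of at least 1 CPM over all libraries were tested, 51 were higher and 2 lower. An older way of estimating the spread in edgeR gave 106 and 2.

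**Figure D1:**
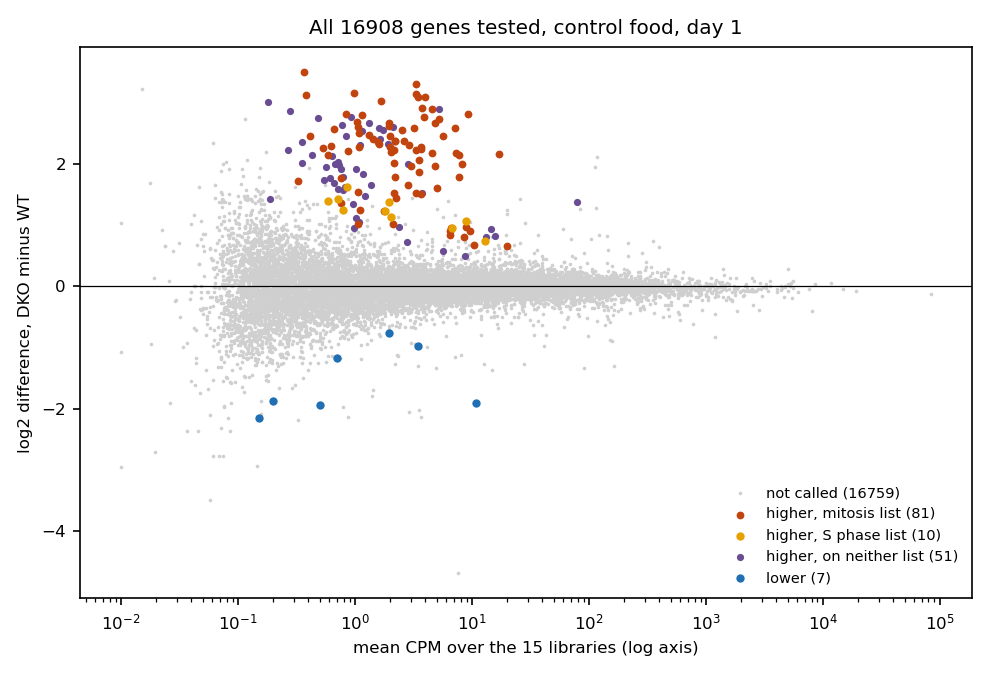
Each point is 1 of the 16908 genes tested, with its mean CPM over the 15 libraries on a log axis and its log2 difference, DKO minus WT, on the vertical axis. The called genes lie mostly above 0 and at low CPM, with 142 higher and 7 lower.

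The sestrin genes were read first, since they bear on the labels. Sesn1 (chr10:41809935-41908424) ran from 13.6 through a median of 18.0 to 22.2 CPM in WT and from 3.86 through 4.83 to 5.44 CPM in DKO libraries. The groups did not overlap, with DKO below WT as in 0.0118% of all genes tested, and the log2 difference was -1.90 ± 0.11 (SE, adjusted p = 2.51e-21, edgeR). Sesn2 ran from 11.4 through 11.9 to 15.3 CPM in WT and from 10.6 through 12.4 to 17.9 CPM in DKO libraries, so that the groups overlapped throughout. Its log2 difference was 0.06 ± 0.17 (adjusted p = 0.999). A count over a whole gene does not show whether a part of it is missing, so the level of Sesn2 checks nothing. Sesn3, the third member of the family, differed by 0.08 ± 0.11. Among the other genes of amino acid sensing by mTORC1 (GATOR, CASTOR, SAMTOR, Rag, Ragulator, folliculin and the mTOR complexes) 0 of 36 passed the test, against 0.881% of all genes tested. Genes beside the sestrin loci, which can descend from another strain together with a deleted allele, were counted. Within 10 Mb of Sesn1, 0 of 84 genes tested were called. Within 10 Mb of Sesn2, 3 of 295 (1.02%) were called, close to the 0.881% of all genes tested, namely Cdca8, Clspn and Stmn1, the nearest at 1.96 Mb.

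**Figure D2:**
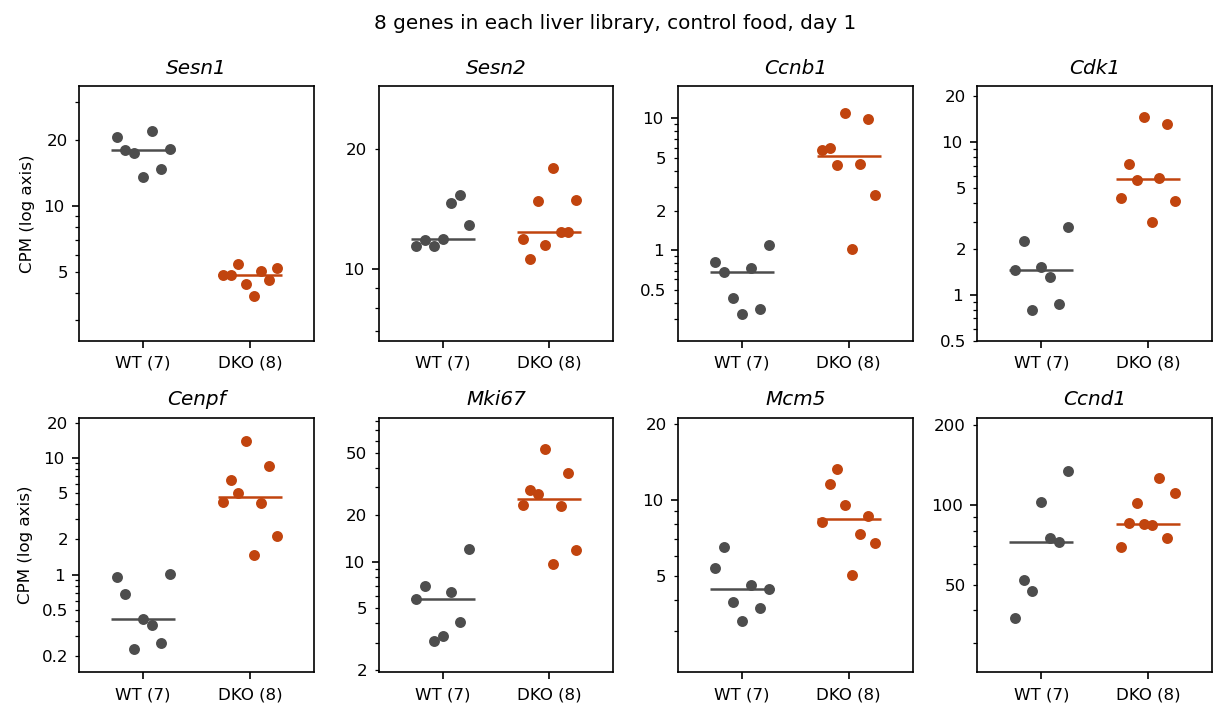
Each point is 1 liver library on control food at day 1, with CPM on log axes that differ between genes; bars are medians, for 7 WT and 8 DKO libraries. Sesn1 is lower in all 8 DKO libraries, Sesn2 and Ccnd1 overlap between genotypes, and Cdk1 and Cenpf are higher in all 8 DKO libraries.

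Cyclins, mitotic kinases and their regulators rose in 16 of 22 cases, against 0.84% of all genes tested, with a median log2 difference of 2.21. Ccnb1 (chr13:100778650-100786570), cyclin B1, ran from 0.328 through 0.681 to 1.09 CPM in WT and from 1.02 through 5.14 to 11.0 CPM in DKO libraries. All but 1 of the 8 DKO libraries exceeded the whole WT group, and the log2 difference was 3.14 ± 0.30 (adjusted p = 5.17e-13, edgeR). This error, like those of the other genes given, uses the spread of all 67 libraries and can be too small for mitosis genes. The SD of Ccnb1 was 0.276 CPM in WT and 3.39 CPM in DKO libraries, and its error was larger when only these 2 groups were fitted. In that fit 71 genes of the mitosis list were called. Cdk1 (chr10:69335146-69352938), the kinase that cyclin B1 activates, ran from 0.798 through 1.45 to 2.78 CPM in WT and from 2.98 through 5.74 to 14.6 CPM in DKO libraries. Here the genotypes did not overlap, at a log2 difference of 2.18 ± 0.28. Ccnb2 and Ccna2, the cyclins B2 and A2, rose by 2.77 ± 0.35 and 2.46 ± 0.30 on the log2 scale, with 7 and 6 DKO libraries above all WT libraries. Plk1, Aurka and Aurkb, kinases of spindle assembly and chromosome attachment, rose by 2.59, 2.24 and 2.37. Foxm1, a transcription factor of late cell cycle genes, ran from 0.593 through 0.968 to 1.89 CPM in WT and from 2.37 through 5.12 to 8.81 CPM in DKO libraries, again without overlap (2.23 ± 0.27). The other such factor listed, Mybl2, did not pass, with a median of 0.748 CPM in WT and 0.603 CPM in DKO libraries and a log2 difference of -0.24 ± 0.29. Ccnf, Cks1b, Cks2, Cdc25b and Bora, also regulators of mitosis, did not pass either, with log2 differences from 0.08 to 0.70.

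Genes of the kinetochore, the centromere and the spindle checkpoint tie chromosomes to the spindle and delay their separation until all are attached. They rose in 21 of 27 cases (median 1.66), against 0.84% of all genes tested. Cenpf, a large kinetochore protein, ran from 0.233 through 0.421 to 1.01 CPM in WT and from 1.46 through 4.6 to 13.8 CPM in DKO libraries. It was higher in 8 of 8 DKO libraries than in any WT library, by 3.30 ± 0.33 on the log2 scale (adjusted p = 4.22e-12, edgeR). Cenpe, a motor of the kinetochore, rose by 2.56 ± 0.30, and Knl1 and Nuf2, parts of its microtubule-binding core, by 2.80 ± 0.33 and 2.45 ± 0.27. Sgo2a, which protects cohesin at centromeres, rose by 2.60 ± 0.31, but 35% of its exon bases lie opposite exons of Kctd18. Birc5, survivin, which guides Aurora B to the centromere, rose by 2.06 ± 0.29 and its partner Cdca8, borealin, by 1.52 ± 0.19. The exceptions were Cenpk, Cenpm, Cenpn, Hjurp, Spc24 and Spc25, at log2 differences from -0.06 to 0.84. Hjurp, the chaperone of the centromeric histone Cenpa, is the 1 listed gene at over 100 CPM in all libraries, at 139 to 190 CPM over the WT and 123 to 183 CPM over the DKO libraries.

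Spindle motors and microtubule proteins rose in 23 of 25 cases (median 2.27), against 0.84% of all genes tested. Hmmr, a spindle assembly factor, ran from 0.166 through 0.748 to 2.07 CPM in WT and from 1.63 through 6.83 to 14.3 CPM in DKO libraries, 7 of which exceeded all WT libraries. Its log2 difference was 2.89 ± 0.29 (adjusted p = 2.04e-12, edgeR). Ckap2l, which binds spindle microtubules, ran from 0.166 through 0.594 to 1.54 CPM in WT and from 1.19 through 6.33 to 10.6 CPM in DKO libraries (3.09 ± 0.30). Troap and Ckap2, both microtubule-associated, rose by 3.15 ± 0.36 and 3.09 ± 0.35, and Tpx2, which activates Aurora A, by 2.73 ± 0.32. The motors Kif18b, Kif20a and Kifc1 rose by 2.69, 2.59 and 2.66, and 29.3% of the exon bases of Kif20a lie opposite exons of Cdc23. Stmn1, stathmin, which takes microtubules apart, rose by 1.78 ± 0.24. The motors Kif15 and Kif24, at 1.12 ± 0.37 and 0.16 ± 0.24, did not pass.

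Genes of anaphase, cytokinesis and chromosome structure rose in 21 of 28 cases (median 1.87), against 0.84% of all genes tested. Ncapg, a condensin subunit, ran from 0.0333 through 0.361 to 0.615 CPM in WT and from 1.54 through 2.06 to 5.66 CPM in DKO libraries. The genotypes did not overlap (3.03 ± 0.30, adjusted p = 2.43e-12, edgeR). Cdc20 and Ube2c, which work with the anaphase-promoting complex, rose by 2.82 ± 0.33 and 2.92 ± 0.33. Racgap1 and Anln, of the contractile ring, rose by 2.27 ± 0.28 and 1.96 ± 0.27. Mki67 (chr7:135689784-135716361), the Ki-67 protein used to stain cycling cells, ran from 3.09 through 5.72 to 12.1 CPM in WT and from 9.59 through 25.1 to 52.9 CPM in DKO libraries. The highest WT library stood above 2 of the 8 DKO libraries, and the log2 difference was 2.16 ± 0.31 (adjusted p = 5.34e-07). Top2a, the topoisomerase that untangles chromosomes, rose by 2.00 ± 0.29. Among the 7 genes that did not pass, Pttg1, securin, spanned 16.6 to 23.2 CPM over the WT and 16.9 to 22.6 CPM over the DKO libraries, a log2 difference of -0.02 ± 0.08. The others were Cit, Ncapd3, Lmnb1, H2afx, Ncapg2 and Ncaph, at -0.08 to 1.13.

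**Figure D3:**
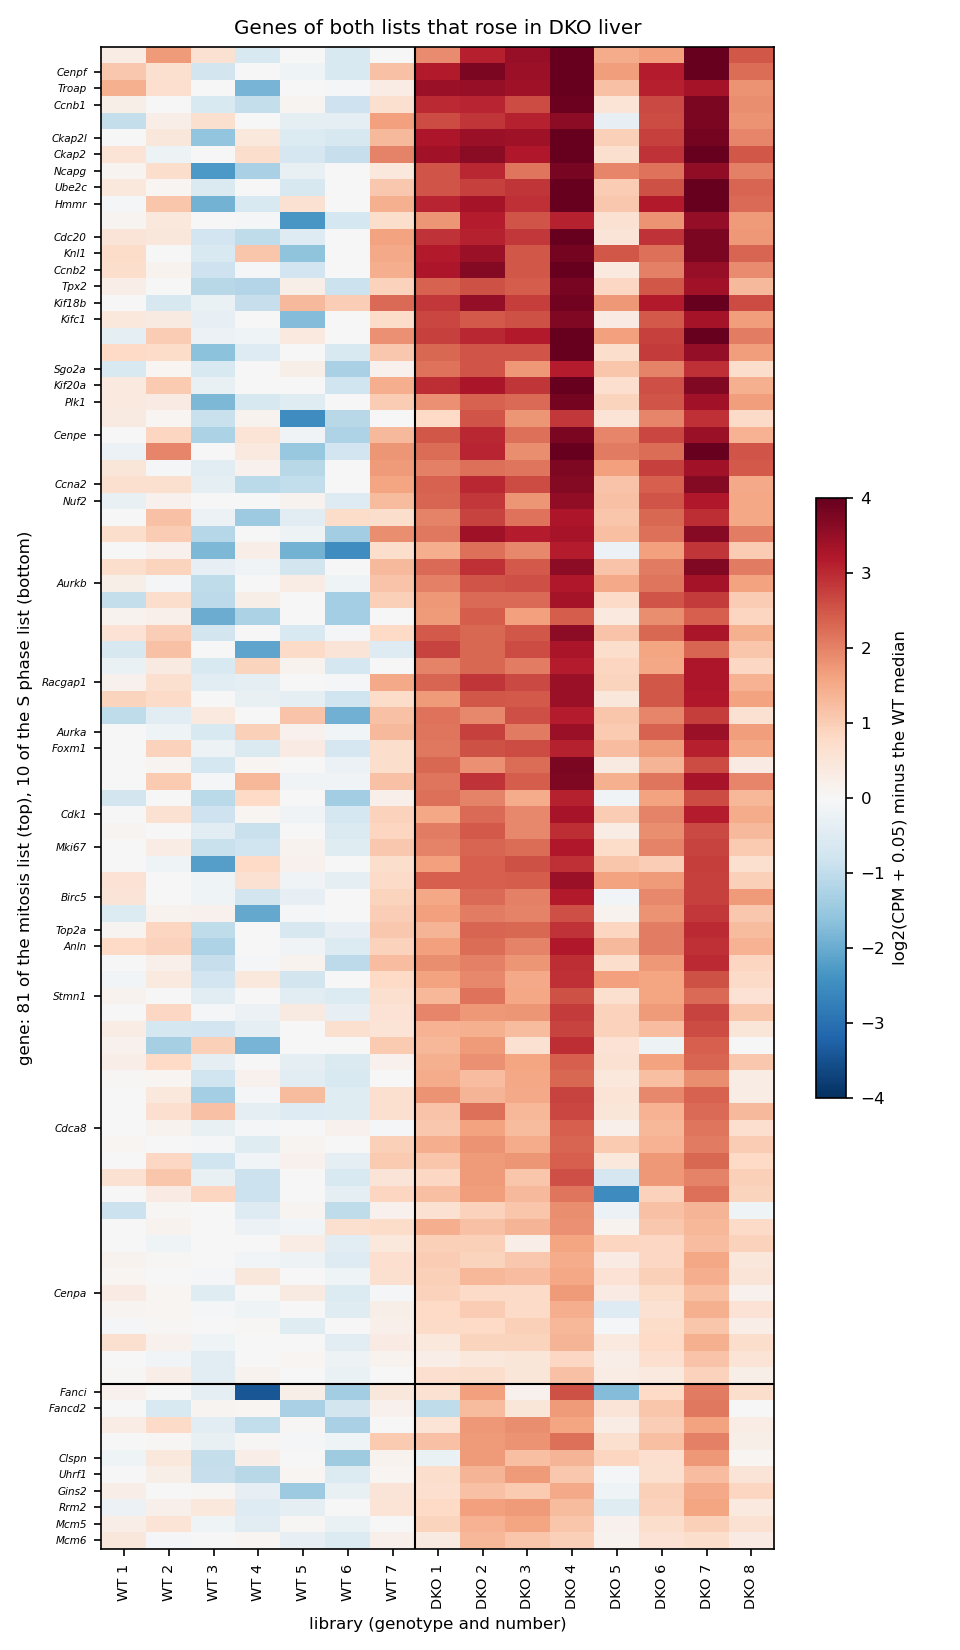
Rows are the 81 genes of the mitosis list and the 10 of the S phase list that rose, columns the 7 WT and 8 DKO libraries; colour is log2(CPM + 0.05) minus the WT median of the gene, on a scale from -4 to 4. Rows of genes described in the text carry their names. DKO libraries 4 and 7 are darkest, and DKO library 5 is the palest of its group for most genes.

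The DKO libraries spread widely among themselves. The mean log2 CPM of the mitosis list was 1.77, 2.11, 1.90, 2.81, 0.78, 1.76, 2.61 and 1.24 in DKO libraries 1 to 8. In WT libraries 1 to 7 it was 0.29, 0.48, -0.22, 0.00, 0.02, -0.13 and 0.90. DKO library 5 thus lay below WT library 7, and the other 7 DKO libraries lay above all WT libraries. Of the 81 genes that rose, DKO library 4 was the highest of its group in 62 and DKO library 7 in 19, and DKO library 5 was the lowest in 60. DKO library 5 still exceeded the WT median in 72 of the 81 genes, and all WT libraries in 26. It also had the largest share of counts on ribosomal RNA genes of the 15 libraries, 0.3542% against 0.1167% in the lowest, and the part of that in its lower values was not tested. Among the WT libraries, library 7 was the highest in 53 of the 81 genes. The whole-table count of called genes was 158 without DKO library 5 and 132 without DKO library 4, with 84 and 77 members of the mitosis list among them. In a piece of liver, more dividing cells and more of this RNA per dividing cell cannot be told apart.

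The promoters of these genes were read for the elements that late cell cycle genes share. The 5 genes of the mitosis list with the smallest adjusted p among those with an entry in the RefSeq promoter table (GRCm38.p6) are shown, from 250 bases before to 50 bases after the annotated start. They are printed along the gene's own strand, 5′ to 3′. Capitals mark CCAAT, the cell cycle genes homology region (either TTTGAA or the variant TTCGAA) and the E2F words, namely TTCCCGC, its variant TTCGCGC, the word TTGCCGC and its variant TTGGCGC, each on either strand. The regions are chr13:100786437-100786736 (minus strand) for Ccnb1, chr2:129297163-129297462 (minus) for Ckap2l and chr11:40733388-40733687 (minus) for Hmmr. For Ncapg and Cenpf they are chr5:45669675-45669974 (plus) and chr1:189688037-189688336 (minus).
Ccnb1: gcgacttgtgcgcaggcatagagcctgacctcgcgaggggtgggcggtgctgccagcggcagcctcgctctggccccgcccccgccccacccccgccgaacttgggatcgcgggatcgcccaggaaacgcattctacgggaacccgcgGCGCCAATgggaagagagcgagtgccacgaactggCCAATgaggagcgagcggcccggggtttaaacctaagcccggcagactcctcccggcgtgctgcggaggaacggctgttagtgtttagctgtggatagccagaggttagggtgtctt
Ckap2l: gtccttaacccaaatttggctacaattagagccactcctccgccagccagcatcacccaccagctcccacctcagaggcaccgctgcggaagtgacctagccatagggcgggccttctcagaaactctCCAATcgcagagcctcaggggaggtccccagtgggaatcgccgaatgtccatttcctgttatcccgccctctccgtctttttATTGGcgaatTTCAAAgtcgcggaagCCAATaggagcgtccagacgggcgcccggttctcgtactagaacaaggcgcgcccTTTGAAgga
Hmmr: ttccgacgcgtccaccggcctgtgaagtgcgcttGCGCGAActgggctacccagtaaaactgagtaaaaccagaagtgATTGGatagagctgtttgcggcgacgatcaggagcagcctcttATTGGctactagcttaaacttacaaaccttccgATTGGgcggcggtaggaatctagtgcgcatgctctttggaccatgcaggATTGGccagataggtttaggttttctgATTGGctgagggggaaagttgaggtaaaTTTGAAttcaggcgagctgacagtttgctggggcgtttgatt
Ncapg: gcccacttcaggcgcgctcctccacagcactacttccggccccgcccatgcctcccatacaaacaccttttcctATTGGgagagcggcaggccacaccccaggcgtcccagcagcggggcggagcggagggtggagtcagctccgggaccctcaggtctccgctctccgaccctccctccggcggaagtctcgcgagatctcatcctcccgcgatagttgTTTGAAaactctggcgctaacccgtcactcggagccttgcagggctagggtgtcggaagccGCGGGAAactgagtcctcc
Cenpf: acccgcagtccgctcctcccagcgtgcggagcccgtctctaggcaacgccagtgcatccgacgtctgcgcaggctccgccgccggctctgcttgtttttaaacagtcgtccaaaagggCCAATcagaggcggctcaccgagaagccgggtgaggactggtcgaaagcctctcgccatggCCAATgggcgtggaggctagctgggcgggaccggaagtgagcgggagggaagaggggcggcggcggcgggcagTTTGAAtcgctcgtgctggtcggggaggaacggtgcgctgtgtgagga
All 5 promoters hold a CCAAT word, from 1 in Ncapg to 5 in Hmmr, and all except that of Ccnb1 hold a TTTGAA word. In Ccnb1 the first CCAAT word overlaps an E2F word by its first bases. In Hmmr and Cenpf the TTTGAA word begins 8 and 2 bases after the annotated start, in Ncapg 30 bases before it.

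Over all genes tested, 11836 of 16892 with a unique symbol matched a promoter, of which 38.5% held CCAAT, 14.2% the homology region and 16.1% an E2F word. Of the 81 mitosis genes that rose 67 matched, and the shares were 74.6%, 76.1% and 19.4%. Both CCAAT and the homology region stood in 62.7% of these promoters and in 5.91% of all. The 17 matched genes of the mitosis list that did not pass held CCAAT in 58.8% and the homology region in 58.8%. The 60 matched genes of the S phase list held CCAAT in 56.7%. For the other 2 elements the order was the other way round, with E2F words in 61.7% and the homology region in 20%. These are counts of words in a fixed window and not of bound sites, and they were not tested.

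The S phase genes moved less. Of 74 tested, 10 rose (13.5%, against 0.84% of all genes tested) and 0 fell, with a median log2 difference of 0.25. Of the 74, 65 lay above 0, against 8347 of all 16908 genes tested. Mcm5, a subunit of the replicative helicase, ran from 3.30 through 4.44 to 6.48 CPM in WT and from 5.04 through 8.39 to 13.3 CPM in DKO libraries. All but 1 of the DKO libraries exceeded the whole WT group, and the log2 difference was 0.95 ± 0.22 (adjusted p = 0.00557, edgeR). Mcm6, another subunit, rose by 0.74 ± 0.16, while Mcm2, Mcm3, Mcm4 and Mcm7 of the same ring stood at 0.31, 0.30, 0.23 and 0.21 and did not pass. Rrm2, the subunit of ribonucleotide reductase that is made for S phase, ran from 3.70 through 5.34 to 7.75 CPM in WT and from 3.78 through 11.6 to 17.6 CPM in DKO libraries, of which 6 were above all WT libraries (1.07 ± 0.23). Among the 10 were Fanci (1.63 ± 0.34) and Fancd2 (1.42 ± 0.31), of DNA crosslink repair. Also among them were Uhrf1, which maintains DNA methylation (1.23 ± 0.26), Clspn, of the replication checkpoint (1.25 ± 0.33), and Gins2, of the helicase complex (1.13 ± 0.28), whose exon bases lie to 67.3% opposite exons of Gse1. Pcna, the sliding clamp, at 0.18 ± 0.08, and Tyms, thymidylate synthase, at 0.32 ± 0.11, did not pass, nor did any listed DNA polymerase subunit. The count of 10 fell to 5 with DESeq2, 4 with the older dispersion estimate and 3 when only the 2 groups were fitted. Without 1 library the call of Clspn was lost for 8 of the 15 libraries (highest adjusted p = 0.183, edgeR), that of Gins2 for 5 (0.107) and that of Fancd2 for DKO library 7 (0.0663). With DESeq2 the genes that did not pass included Clspn (adjusted p = 0.702), Fanci (0.477), Gins2 (0.306), Uhrf1 (0.186) and Fancd2 (0.0676). Clspn (0.181) and Fancd2 (0.105) did not pass with voom. When only the 2 groups were fitted, Fanci (0.456, edgeR), Rrm2 (0.136) and Mcm6 (0.0775) were among those that did not pass.

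Cyclins and signals of the earlier cell cycle had a median log2 difference of 0.04, with single genes from -0.38 to 1.16. Of 35 genes of G1 and growth signals 1 rose (2.86%, against 0.84% of all genes tested). This was Cdkn2c, an inhibitor of the kinases Cdk4 and Cdk6, from a median of 6.98 to 9.48 CPM (0.49 ± 0.13, adjusted p = 0.0390, edgeR). Its call was lost without any 1 of 9 libraries. Ccnd1, cyclin D1, ran from 37.2 through 72.5 to 134 CPM in WT and from 69.6 through 84.9 to 126 CPM in DKO libraries, all within the WT range (0.31 ± 0.38). Myc stood at medians of 2.60 and 2.74 CPM (0.09 ± 0.42). Ccne1, Ccne2 and E2f1, which act at the entry to S phase, had log2 differences of 0.56, 0.51 and 0.19. E2f8, another E2F gene, stood at 0.77, and none of the 4 passed. Cdkn1a, the inhibitor p21, ran from 1.67 through 3.71 to 8.38 CPM in WT and from 6.39 through 9.77 to 13.8 CPM in DKO libraries, with 5 of 8 above all WT libraries. Its difference of 1.16 ± 0.54 did not pass (adjusted p = 0.888, edgeR). That error uses the spread of all 67 libraries. Cdkn1a varied widely in WT livers on leucine-free food at day 1 (mean 23.8, SD 43.4 CPM). In the 2 groups compared the SD was 2.34 CPM in WT and 2.71 CPM in DKO libraries. When only these 2 groups were fitted, 0 genes of the G1 and growth signals list passed. Of 20 p53 target genes 0 passed (median 0.06), against 0.881% of all genes tested.

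**Figure D4:**
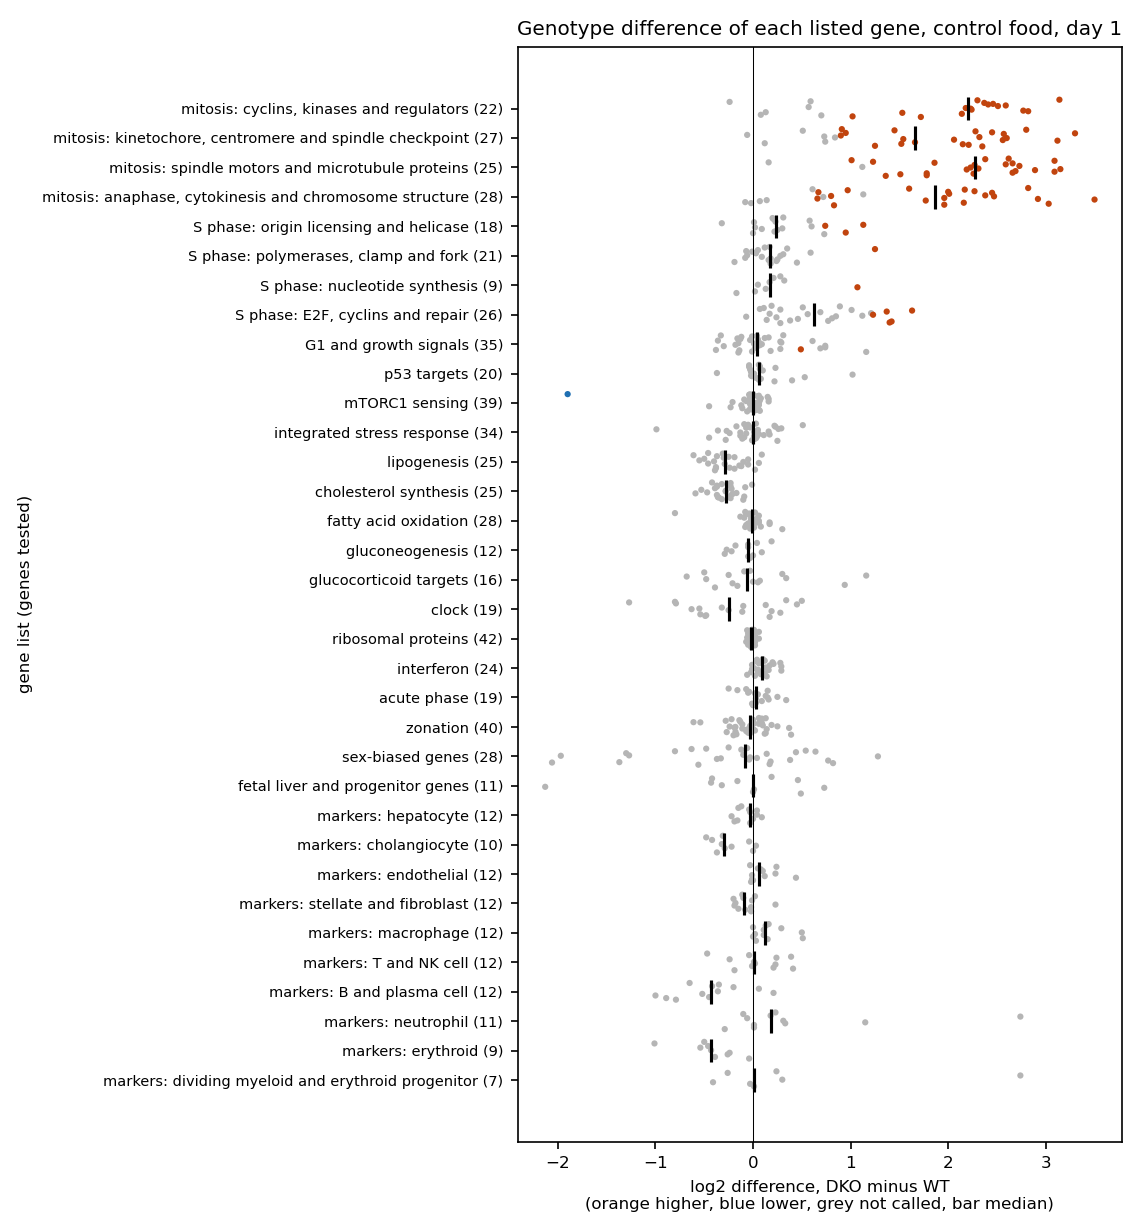
Each point is the log2 difference, DKO minus WT, of 1 gene of a list (number tested in brackets), with the median of the list as a bar. The 4 groups of the mitosis list have medians from 1.66 to 2.27, and the medians of the lists outside mitosis and S phase lie between -0.44 and 0.18.

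A further 50 genes that rose were on no list, 46 of them protein coding. The genes given in this paragraph, other than Knstrn, Cdkn3, Pif1 and Parpbp, were picked after their values were seen. Several are known for division. Knstrn, a kinetochore and spindle protein, rose by 2.89 ± 0.31 with 7 DKO libraries above all WT libraries. Its lowest DKO library, at 0.717 CPM, was below the lowest WT library, at 0.799 CPM. Dlgap5, which bundles spindle microtubules, rose by 2.61 ± 0.33, and Cdkn3, a phosphatase of Cdk kinases, by 2.66 ± 0.29. Mastl, the kinase that holds off a phosphatase during mitosis, rose by 1.91 ± 0.31 and did not overlap between the genotypes. Others act in DNA replication and repair, such as Pif1, a DNA helicase (2.76 ± 0.36), Parpbp, a regulator of recombination (2.63 ± 0.38), and Polq, a repair polymerase (2.00 ± 0.35). Tymp, thymidine phosphorylase, which breaks down thymidine, was the 1 gene that rose with a DKO mean above 100 CPM. It ran from 21.0 through 43.5 to 67.3 CPM in WT and from 36.6 through 122 to 154 CPM in DKO libraries, with 7 of 8 above all WT libraries (1.38 ± 0.23, adjusted p = 2.39e-05, edgeR). Its exon bases are shared to 42.0% with Sco2 on the same strand, and Sco2, a copper chaperone of mitochondrial respiration, was called too (0.82 ± 0.19), so the reads of the pair cannot be fully told apart. Wdfy1, an adaptor of Toll-like receptors, ran from 7.71 through 10.0 to 10.9 CPM in WT and from 11.2 through 19.4 to 24.0 CPM in DKO libraries, without overlap (0.94 ± 0.24). Ccr3, a chemokine receptor of eosinophils, rose by 2.75 ± 0.54 from a median of 0.117 to 0.664 CPM.

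Apart from Sesn1, 6 genes fell. Ttll3, which adds glycine to tubulin, ran from 1.80 through 2.50 to 3.14 CPM in WT and from 0.856 through 1.42 to 2.16 CPM in DKO libraries (-0.77 ± 0.17, adjusted p = 0.00308, edgeR). The genotypes overlapped in all 6. Zfp979, a zinc finger gene, fell by 1.88 ± 0.44 from a median of 0.421 to 0.113 CPM. Alox15, a lipoxygenase, fell by 1.94 ± 0.49, Mdk, the growth factor midkine, by 1.17 ± 0.30, Kbtbd13 by 2.16 ± 0.58 and Prss8, the protease prostasin, by 0.98 ± 0.26. The calls of these last 4 genes were lost when 1 library was left out, for 6, 8, 10 and 11 of the 15 libraries. Zfp979 did not pass with voom (adjusted p = 0.146), nor Ttll3 when only the 2 groups were fitted (0.0748, edgeR). On leucine-free food at day 1, in other mice, Alox15 (-1.80), Kbtbd13 (-1.70) and Prss8 (-0.81) were also called lower in DKO livers. There Mdk (-0.59), Zfp979 (-0.39) and Ttll3 (-0.07) did not pass. Cyp1a1, picked after its values were seen for the largest estimate in the table, averaged 15.5 CPM over the WT and 0.601 CPM over the DKO libraries and did not pass (-4.69 ± 1.41, adjusted p = 0.149).

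Lists of other liver functions gave no call. Over all genes tested 0.881% were called, so 0 calls in lists this short carry little weight. Of all 16908 genes tested, 8347 had a log2 difference above 0. Of 25 genes of fatty acid synthesis 0 passed, with a median of -0.29 and 3 above 0, and of 25 genes of cholesterol synthesis 0 passed, with a median of -0.28 and 0 above 0. Single libraries moved these medians. Without WT library 3 they were -0.13 and -0.19, and without WT library 4 that of cholesterol synthesis was -0.45. Fasn, fatty acid synthase, ran from 1300 through 2890 to 6120 CPM in WT and from 1080 through 2700 to 4660 CPM in DKO libraries, a nearly complete overlap (-0.38 ± 0.31). Scd1, stearoyl-CoA desaturase, stood at -0.40 ± 0.49. Of 34 genes of the integrated stress response, which amino acid shortage switches on, 0 passed (median 0). Asns, asparagine synthetase, stood at 0.51 ± 0.59, Trib3 at 0.01 ± 0.48, Fgf21, a liver hormone of protein restriction, at 0.29 ± 0.65, and Ddit4, an inhibitor of mTORC1, at -0.13 ± 0.59. For fatty acid oxidation (28 genes), gluconeogenesis (12), glucocorticoid targets (16), ribosomal proteins (42), interferon response (24), acute phase (19), liver zonation (40), sex-biased liver genes (28) and fetal liver (11), 0 genes passed and the medians lay between -0.08 and 0.09. The 19 clock genes had a median of -0.25, with 0 called, which was -0.09 without WT library 1 and -0.37 without DKO library 2. Dbp, a clock output gene, spanned 2.83 to 105 CPM over the WT and 2.60 to 71.5 CPM over the DKO libraries. A model that also held 2 components of the clock genes, taken over all 67 libraries, called 84 mitosis genes. The part of the clock in the mitosis difference was not tested.

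Markers of the cells that a piece of liver can hold gave no call, which at 0.881% called over all genes tested carries little weight. Hepatocyte markers were tested for 12 genes (median -0.03), and Alb, albumin, spanned 72100 to 99100 CPM over the WT and 73400 to 93700 CPM over the DKO libraries, the level of a liver-specific gene in liver. The summed level of 12 macrophage markers was 463 to 775 CPM in WT and 432 to 879 CPM in DKO libraries, with a median log2 difference of 0.12 and 12 of 12 above 0. The sum over 12 T and NK cell markers was 3.97 to 7.58 CPM in WT and 3.76 to 7.99 CPM in DKO libraries (median 0.02). For 12 B and plasma cell markers it was 15.6 to 31.7 and 13.6 to 32.9 CPM (median -0.44), and for 11 neutrophil markers 4.03 to 9.58 and 2.74 to 12.8 CPM (median 0.18). Erythroid markers summed to 122 to 280 CPM in WT and 88.5 to 163 CPM in DKO libraries, with 0 of 9 above 0. For 7 markers of dividing myeloid and erythroid progenitors the sums were 30.7 to 49.7 and 29.7 to 59.6 CPM (median 0.01). Mpo, myeloperoxidase, had a median of 0 CPM in WT and 0.048 CPM in DKO libraries, and Ctsg, Ms4a3, Gata1 and Ly6g were too scarce to test. Markers of cholangiocytes, endothelial cells and stellate cells had medians of -0.30, 0.06 and -0.09. Without 1 library the neutrophil median ranged from -0.03 to 0.42 and the cholangiocyte median from -0.39 to -0.08. The sum over the mitosis list was 375 to 488 CPM in WT and 427 to 1160 CPM in DKO libraries, ranges that overlap. That sum includes the abundant Hjurp, described above, which did not pass. None of these 15 libraries had a count on 4 Y-linked genes. Which cells carry the mitosis RNA was not tested.

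The genotype difference in mitosis genes was set beside that on leucine-free food at day 1 and on control food at day 8, in livers of other mice. On leucine-free food 0 of 102 mitosis genes were called (3.7% of all genes tested were) and the median log2 difference was 0.04. At day 8 on control food 0 of 102 were called (0.0532% of all) and the median was 0.21. The mean log2 CPM of the list had a median over libraries of 0.02 for WT and 1.84 for DKO at day 1 of control food. On leucine-free food at day 1 these medians were -0.80 and -0.73, and on control food at day 8 they were -0.49 and -0.16. The lowest of the 8 DKO libraries described here, at 0.78, exceeded the highest library of those 4 groups, at 0.24. WT libraries 1, 2 and 7 on control food at day 1, at 0.29, 0.48 and 0.90, exceeded that highest library too.

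**Figure D5:**
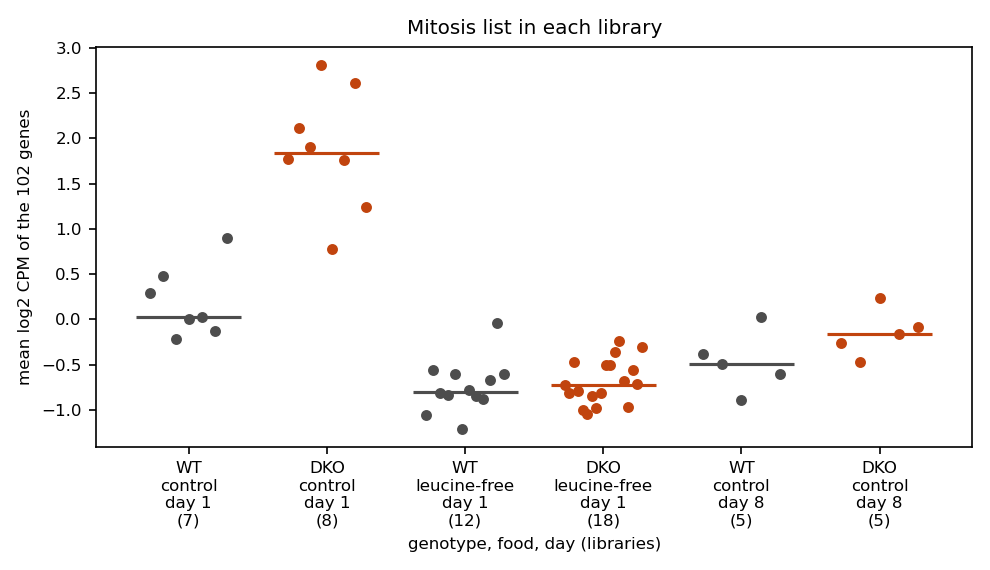
Each point is 1 library, the vertical axis is the mean log2 CPM over the 102 genes of the mitosis list, and bars are medians; groups are genotype, food and day, with the number of libraries in brackets. The 8 DKO libraries on control food at day 1 lie between 0.78 and 2.81, and the libraries of the 4 groups at the right lie between -1.21 and 0.24.

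The difference between genotype differences was tested itself. Between control and leucine-free food at day 1 it was called for 63 genes (0.373%), 62 of them with the larger DKO minus WT difference on control food (0.367%), and 44 of the 102 mitosis genes were among them. For Ccnb1 the genotype difference was 3.14 ± 0.30 on control and -0.12 ± 0.51 on leucine-free food, and the difference between them was 3.25 ± 0.65 (adjusted p = 0.00211, edgeR). For Birc5 it was 2.47 ± 0.41 (adjusted p = 0.000211). The S phase list had 1 such gene. Tymp differed by genotype on leucine-free food as well (0.82 ± 0.16, adjusted p = 0.00199). Between day 1 and day 8 on control food the test called 24 genes (0.142%), 15 of them with the larger DKO minus WT difference at day 1 (0.0887%), and 11 of the 102 mitosis genes, Foxm1 and Birc5 among them. Foxm1 had a genotype difference of -0.08 ± 0.43 at day 8, and 2.31 ± 0.51 separated the days (adjusted p = 0.0396). Ccnb1, at 1.36 ± 0.80 at day 8, gave a difference between days of 1.77 ± 1.01 that did not pass (adjusted p = 0.742). The direction over all genes called, not only those of the mitosis list, depended on the setting. Voom gave 70 genes with the larger difference at day 1 and 107 with the smaller. Surrogate variables gave 14 and 19, no expression filter 4 and 5, and the older dispersion 2 and 2. More genes had the larger difference at day 1 with DESeq2 (15 and 7), DESeq2 size factors (15 and 9) and the mouse number as a block (19 and 11). The same held with clock components (12 and 8), a mean of at least 1 CPM (11 and 8) and scaling by total counts (11 and 10). With only the groups compared in the fit 0 genes passed between days, and without 1 library the count ranged from 5 to 49.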

How the data were processed

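The deposited values are unnormalised whole counts for each Ensembl gene in each library, made by the authors, per the submitters' processing notes, with STAR 2.7.1a, featureCounts 2.0.1 and DESeq2 1.26.0 on GRCm38 (mm10), with no role given for each. Per the labels' protocols, RNA of flash-frozen liver was made into directional libraries. Whether counting used the strand is not stated there. Names and positions came from GENCODE M21 (GRCm38), which held all 55450 identifiers.

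The filter of edgeR 4.0.16 (R 4.3.3) by group kept 16908 genes and left out 38542. Counts were scaled by TMM and fitted with edgeR's quasi-likelihood model over all 67 libraries in 8 groups, which share 1 estimate of the spread, and the DKO minus WT contrast of control food at day 1 was tested. Errors of log2 differences are standard errors (SE) from the F statistic. The shared estimate can be too small for genes that vary most in these 2 groups: fitted alone, they gave Ccnb1 an SE of 0.46. It can be too large for genes that vary more in other groups, such as Cdkn1a. On simulated counts this fit made more false calls than its nominal level, and the older edgeR dispersion fewer, so counts with that estimate are also given.

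Gene lists, the genes named and the tests were chosen with earlier results of these data known. Genes named are a fixed set of 37, the 20 with the largest rise and all that fell. Up to 5 per list role with the smallest adjusted p and those near Sesn1, Sesn2 or Sesn3 are named too. The 20 had a mean of at least 1 CPM in the DKO or the WT group, so that a gene could enter through the DKO group alone. Genes outside this rule were picked after their values were seen, among them Hjurp, Pttg1, Pcna, Kif15, Kif24, Mcm3, Mcm4, Mcm7, Mpo and the list members named as not passing. The range of a list is given for the rest. Alternatives were limma voom 3.58.1, DESeq2 1.42.0, sva 3.50.0 surrogate variables, other scalings and filters, clock components, the mouse number as a block, and each library left out. The older dispersion was added after seeing the data. No libraries of a group agreed within sampling noise (lowest chi-square per degree of freedom 17.2). Without molecular identifiers, reads need not be independent molecules. Some genes of the lists are counted in them but not reported here by name.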

Additional observations from a re-analysis of the deposited data

Results flagged for a closer look

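Among the fixed set of 37 genes and the mitosis and S phase list means, 78 groups of 7 or 8 libraries were examined for 1 library far from the rest, and 10 had one. The limit used is nominally passed by about 1 in 20 groups of normal values; the rate for CPM of related genes was not measured. In WT livers library 7 was far above the others for Aurkb (1.36 CPM, next 0.733) and Mki67 (12.1, next 6.98), and library 5 for Fgf21 (8.01, next 3.22). In DKO livers library 3 was far above the others for Chrna4 (174, next 83.9), Ddit4 (37.9, next 22.5), Mybl2 (1.63, next 0.668) and Scd1 (16500, next 6830). DKO library 7 stood apart for E2f8 (15.9, next 6.01), DKO library 5 for Fgf21 (14.2, next 4.48) and DKO library 2 for Myc (8.81, next 3.12). None of these 10 was a low value.

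The genotype difference on control food minus that on leucine-free food at day 1 passed edgeR's quasi-likelihood test (adjusted p under 0.05) for 12 of the 37 genes. On the log2 scale it was 3.25 for Ccnb1, 3.18 for Hmmr, 3.13 for Ccnb2, 3.07 for Cenpf, 2.57 for Plk1, 2.47 for Ccna2 and 2.47 for Birc5. It was 2.10 for Aurkb, 2.00 for Mki67, 1.92 for Cdk1 and 1.87 for Foxm1. Ddit4 had the opposite sign, at -3.26, with a genotype difference of -0.13 on control and 3.12 on leucine-free food.

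Between day 1 and day 8 on control food, 3 of the 37 passed, with 2.40 for Birc5, 2.31 for Foxm1 and -2.72 for Chrna4, a nicotinic receptor subunit gene, which had genotype differences of -0.49 at day 1 and 2.23 at day 8.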

How the results depend on the processing

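The main count of 149 genes was 119 with DESeq2 (116 shared), 149 with voom (134 shared), 104 with only the groups compared and 53 at a mean of at least 1 CPM, where fewer genes were tested. Without 1 library it was 132 to 158. The mitosis list had 71 to 84 called members under all alternatives except that CPM minimum, which gave 38 and a median of 1.52. Other scalings moved the median of all genes by at most 0.032.

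The test between days gave 24 genes, 177 with voom, 9 with no expression filter, 4 with the older dispersion, 0 with only the groups compared, and 5 to 49 without 1 library. The test between foods gave 63, 29 with voom and 36 at that CPM minimum. The cause of these changes was not tested.

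With the mouse number as a replicate block 154 genes were called, 145 of them shared. Same-numbered libraries did not deviate together (correlations -0.09 to 0.16, 2 of 7 over 0.1, and 1 WT library closest to its own number).

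For single genes named, 1868 values kept direction and call, 109 kept direction and lost the call, and 18, none of them called, changed sign. These were Fgf21 with voom (-0.21), Myc (-0.01) and Trib3 (-0.15) with the block, Trib3 with surrogate variables (-0.09), and Dbp (0.10) and Ddit4 (0.07) with clock components. Without 1 library Trib3 ranged from -0.12 to 0.16, Myc from -0.32 to 0.40, Afp from -0.07 to 0.35, Fgf21 from -0.37 to 0.70 and Sesn2 from -0.01 to 0.11. At 28.7 counts per CPM in the smallest library, genes under 0.1 CPM rest on a few counts.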
